A study of Parascaris univalens with 7 samples.

Results

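Vitellogenins are the large lipid-carrying yolk proteins of egg-laying animals. In the nematode Caenorhabditis elegans they are made in the intestine of the adult hermaphrodite, secreted into the body cavity and taken up by growing oocytes through a receptor of the low-density lipoprotein receptor family, and the embryo later uses the yolk as food. In C. elegans males the genes are kept silent in the intestine. In the gene table of the horse roundworm Parascaris univalens, 4 of 15027 genes carry the annotation vitellogenin-6, and all 4 were taken by their identifiers, with 15 of the 40487 listed transcripts. They are PgR126X_g018, PgR126X_g019, PgR126X_g020 and PgR057_g055. The annotation is a name given by similarity, and the table holds no sequence by which it could be checked.

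RNA came from embryo, ovary, testis, carcass and intestine of a North American wild-type strain, with 1 library per tissue and no treatment. Adults of both sexes were taken from horse intestine and dissected, per the labels' protocols; carcass is the label for the body left after dissection. The labels give ovary as female germline, testis as male germline, and embryo, carcass and intestine alike as male somatic. Whether the sex given for these somatic libraries holds was not tested. This worm eliminates part of its DNA from somatic precursor cells early in development and retains it in the germline. Values were taken as RPKM, read counts scaled by transcript length and library depth. Low values rise in steps of whole reads, which gave a depth of about 11900000 reads for embryo, 31750000 for ovary, 31350000 for testis, 27600000 for carcass and 18550000 for intestine. Intervals are exact 95% Poisson or binomial intervals of the reads and cover counting error only. With 1 library per tissue the spread between animals is unknown and no p-value was computed. In whole tissues, fewer cells of a type and less RNA per cell cannot be told apart.

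Marker genes were set against the tissue labels. Of 46 sperm marker genes with at least 5 RPKM in some tissue, 45 were highest in testis, and of 21 ovary and eggshell marker genes 19 were highest in ovary. Carcass was highest for 44 of 78 muscle and cuticle genes, whereas of 54 genes of a list of digestive enzymes, transporters and gut regulators ovary was highest for 21 and intestine for 18. Among its 4 highest members, gut esterase 1 (PgR060_g009) had 331.5 RPKM in embryo, 367.3 in ovary, 667.7 in testis, 442.2 in carcass and 419.8 in intestine, highest in testis. Another, sucrase-isomaltase (PgR007_g176), a digestive sugar-splitting enzyme, had 337.5 RPKM in embryo, 4.5 in ovary, 117 in testis, 505.4 in carcass and 3376 in intestine. Summed over its whole list, sperm marker RPKM in intestine was 2.47% of that in testis, with 8 of the 48 genes listed at 0. Ovary marker RPKM in intestine was 0.415% of that in ovary, with 2 of the 23 genes at 0, and in embryo it was 7.64%. The list of digestive enzymes, transporters and gut regulators summed to 13900 RPKM in intestine. In embryo its sum was 18.2% of the intestinal one, in ovary 14.3%, in testis 17.3% and in carcass 22.3%.

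The 4 genes fell into 2 patterns. The 3 genes of one locus on scaffold PgR126X were highest in intestine, lower in carcass and embryo, and at most at 2.4 RPKM in both gonads. The separate gene PgR057_g055 was highest in testis and below 1 RPKM in intestine. None of the 4 genes or their 15 transcripts is marked as lying in eliminated DNA, against 6.55% of all genes and 7.45% of all transcripts. Most genes lack this mark, so its absence does not set these 4 apart.

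PgR126X_g018 lies on scaffold PgR126X between positions 259049 and 268864 on the plus strand, in the authors' assembly, whose build is not given in the sources used here. Its single transcript has 8 exons and 7483 nt. Its level was 96.4 RPKM in embryo (counting interval 94.4 to 98.5), 1.6 in ovary (1.44 to 1.77), 2.4 in testis (2.21 to 2.61), 205.8 in carcass (204 to 208) and 961.1 in intestine (956 to 966). No 2 of these intervals overlap, and the order from low to high was ovary, testis, embryo, carcass and intestine. In intestine it ranked 50th of the 15027 genes by RPKM, in carcass 304th and in embryo 402nd, whereas in testis it ranked 9247th and in ovary 9762nd. The intestinal value corresponds to about 133410 reads, and the ovarian one to about 380.

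PgR126X_g019 lies between positions 259179 and 261808 and PgR126X_g020 between 263046 and 266877, both on the minus strand and wholly inside the span of PgR126X_g018. The first has 2 exons and 2284 nt, the second 1 exon and 3832 nt. PgR126X_g019 had 51.4 RPKM in embryo, 0.2 in ovary, 0.9 in testis, 103.2 in carcass and 501.1 in intestine. PgR126X_g020 had 62.5 RPKM in embryo, 0.2 in ovary, 1.1 in testis, 136.9 in carcass and 628 in intestine. Both followed the order of the enclosing gene from ovary up to intestine. They ranked 90th and 71st in intestine. Values are rounded to 1 decimal, so the ovarian 0.2 RPKM, about 15 reads for PgR126X_g019 and 24 for PgR126X_g020, is coarse.

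The inner genes kept a nearly fixed ratio to the enclosing gene in the 3 tissues where the locus was high. PgR126X_g019 stood at 53.3% of the RPKM of PgR126X_g018 in embryo (50.4% to 56.4%), 50.1% in carcass (48.9% to 51.5%) and 52.1% in intestine (51.4% to 52.9%). PgR126X_g020 stood at 64.8% in embryo (62.1% to 67.6%), 66.5% in carcass (65.3% to 67.8%) and 65.3% in intestine (64.6% to 66.05%). In the gonads the ratio was lower. For PgR126X_g019 it was 12.5% in ovary (7.17% to 21.6%) and 37.5% in testis (28.3% to 48.3%), and for PgR126X_g020 12.5% in ovary (7.80% to 18.6%) and 45.8% in testis (37.6% to 55.4%). Counted as reads, both inner genes together held 49.5% of the number at PgR126X_g018 in embryo, 49.4% in carcass and 49.4% in intestine, but 10.26% in ovary and 34.8% in testis. Strandedness of the libraries is not given in the sources used here, so these 3 genes may hold the reads of 1 locus, and they are not independent.

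**Figure D1:**
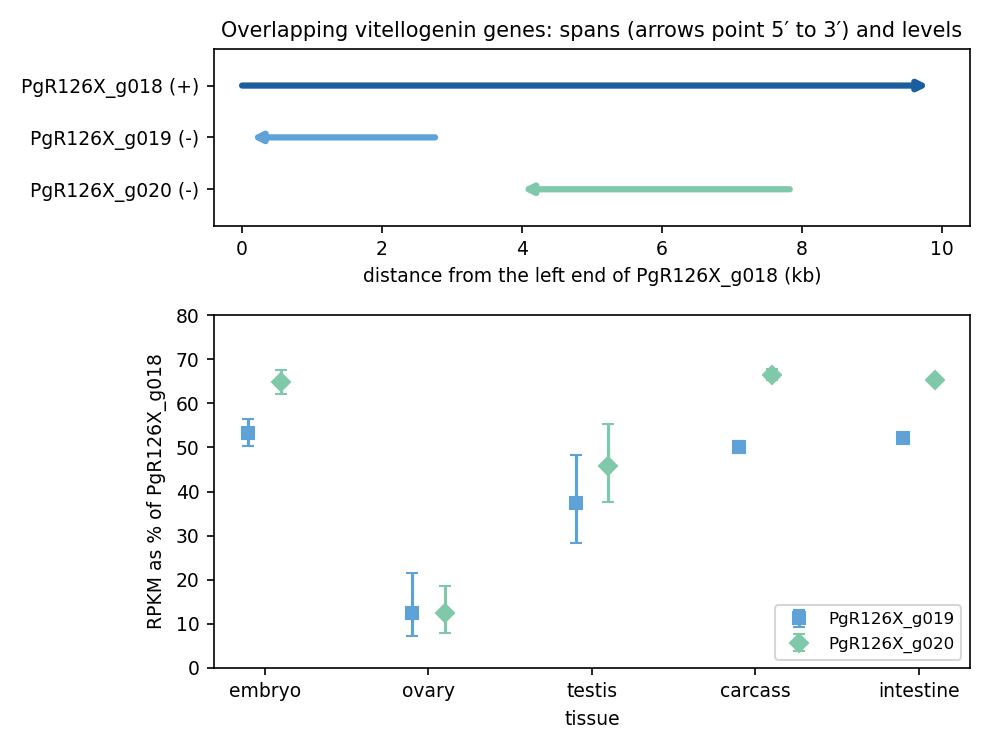
Upper panel, spans of PgR126X_g018, PgR126X_g019 and PgR126X_g020, with distance in kb from the left end of the first on the x axis. Lower panel, RPKM of each inner gene as a percentage of PgR126X_g018 by tissue, with 95% counting intervals as bars: the points sit between 50.1% and 66.5% in embryo, carcass and intestine, and lower in ovary (12.5% each) and testis (37.5% and 45.8%).

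Other genes of the table also lay inside a gene of the opposite strand. Of the 15027 genes, 1041 have no strand listed and were not searched. Among the rest, 315 lay within an opposite-strand gene bearing an identical annotation, PgR126X_g019 and PgR126X_g020 included. Uninformative annotations such as hypothetical protein were not left out, so an identical annotation need not mean related genes. The likeness of an inner and an outer gene was measured as the Euclidean distance over the 5 tissues between their log2(RPKM + 1) profiles, each less its own mean. It was 0.21 for PgR126X_g019 and 0.44 for PgR126X_g020, against a median of 1.03 (quartiles 0.57 and 1.73) over the 153 other pairs in which both genes reached 20 RPKM. The inner gene stood at a median 37.8% of the outer one in the outer gene's highest tissue in those pairs (quartiles 18.9% and 77.8%). Over 101 pairs with unlike annotations that reached 20 RPKM, the distance had a median of 2.73 (quartiles 1.25 and 4.7).

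PgR057_g055 lies on scaffold PgR057 on the minus strand, and its 12 transcripts range from 1474 to 10212 nt. It was represented by transcript t11, which has the highest mean over the tissues, 5 exons and 1474 nt, between positions 823760 and 830209. Its level was 5.2 RPKM in embryo (4.18 to 6.37), 3.2 in ovary (2.71 to 3.76), 54.4 in testis (52.3 to 56.6), 0.7 in carcass (0.457 to 0.995) and 0.7 in intestine (0.418 to 1.09). Testis stood far above the other tissues, embryo came next and the interval of this transcript in embryo lay above that in ovary, and carcass and intestine could not be told apart. The testis value is about 2514 reads and rank 1285, and the intestinal value about 19 reads and rank 9758.

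**Figure D2:**
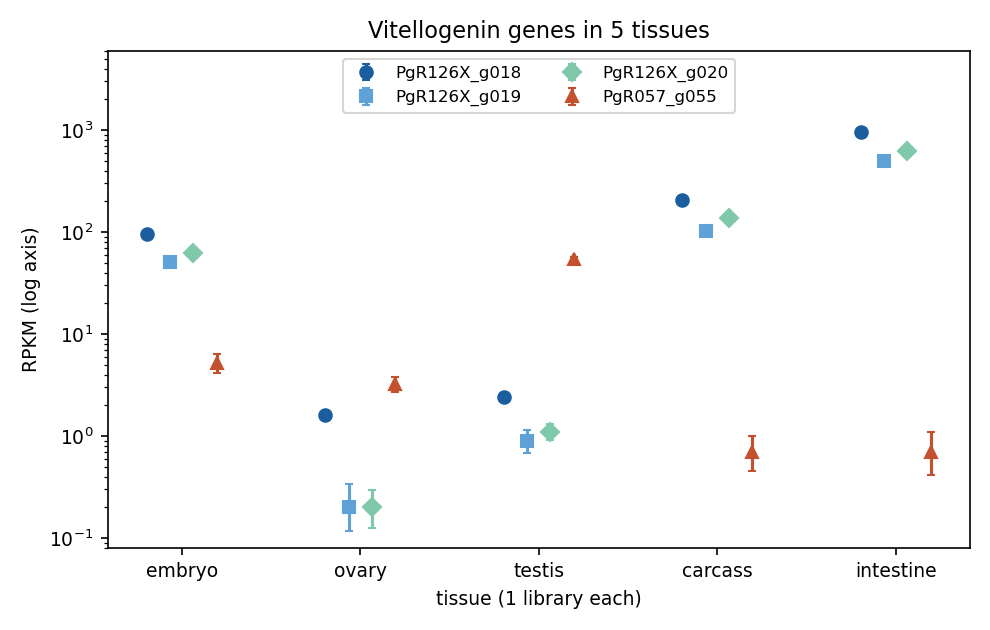
RPKM of the representing transcript of each vitellogenin gene on a log axis, by tissue, with 95% counting intervals of the reads as bars (1 library per tissue). The 3 PgR126X genes peak in intestine between 501.1 and 961.1 RPKM, while PgR057_g055 peaks in testis at 54.4 RPKM and stands at 0.7 in carcass and intestine.

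All 12 transcripts of PgR057_g055 were highest in testis, but their testis values spanned 12.4-fold. The 6 transcripts of over 6000 nt that reach the 3′ end of the gene had between 17.5 and 21.6 RPKM in testis. The 5 transcripts that stop short of that end, with 1474 to 5904 nt, had between 27.5 and 54.4 RPKM. Transcript t01, with 2033 nt at the 3′ end alone between positions 816205 and 819073, had 4.4 RPKM in testis (3.89 to 4.94), 0.2 in intestine (0.092 to 0.418), and was listed at 0 in embryo, ovary and carcass. How reads were divided among overlapping transcripts is not given in the sources used here, so these values need not be the read density of each part of the gene. The testis value of the longest transcript, t04, corresponds to about 5603 reads, against 3760 for t10 and 2514 for t11. Outside testis every transcript was low: at most 5.2 RPKM in embryo, 3.2 in ovary, 0.7 in carcass and 0.7 in intestine.

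**Figure D3:**
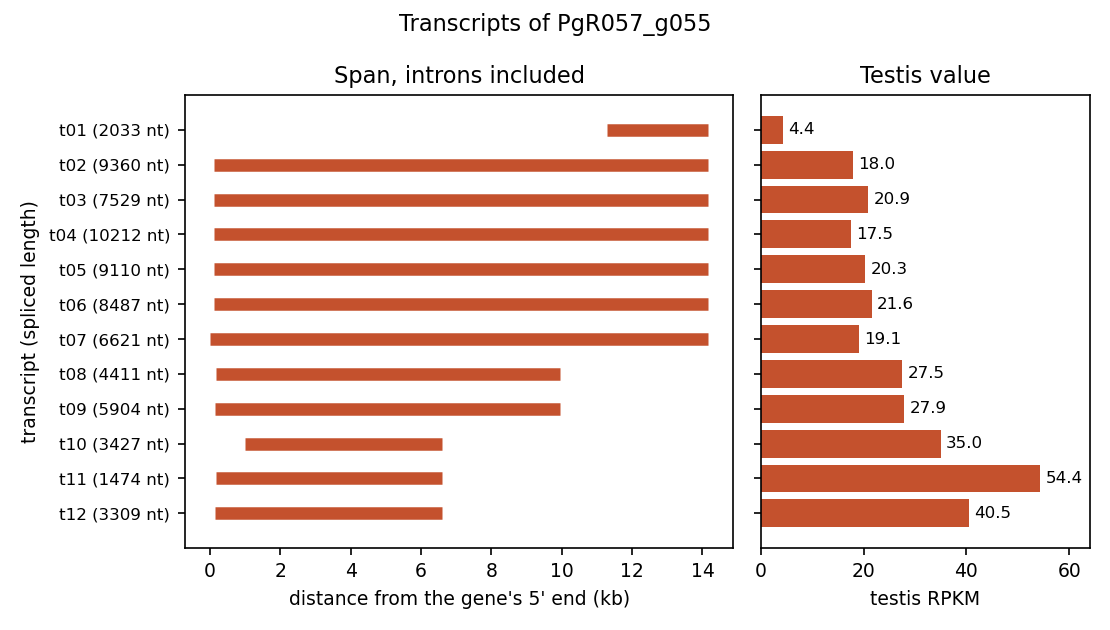
Left, span of each transcript of PgR057_g055 from its 5′ to its 3′ end, introns included, with distance in kb from the 5′ end of the gene on the x axis and spliced length beside each name. Right, testis RPKM of the same transcripts as bars from 0: t01 at the 3′ end has 4.4 RPKM, the long transcripts 17.5 to 21.6 and those confined to the 5′ part 27.5 to 54.4.

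The marks from the pair of 5′ end libraries also separated the loci. The spliced leader is a short RNA that nematodes join to the 5′ end of many transcripts by trans-splicing. It was marked on 11 of the 12 transcripts of PgR057_g055, all but t01, and on none of the PgR126X genes. Each of the 3 PgR126X transcripts instead carried the mark of the TeloPrime library, listed as not trans-spliced. Of all genes, 36.1% had a spliced leader mark, 15.9% a TeloPrime mark and 6.51% both.

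Each tissue was next set against intestine, the site of yolk synthesis in C. elegans. A gene was called at a difference of 4-fold on the log2(RPKM + 1) scale and 5 RPKM or more in the higher of the pair; on this scale the folds of low genes are understated. The 3 PgR126X genes were lower than intestine in each of the other 4 tissues, and PgR057_g055 was called in 1 comparison, higher in testis. Embryo was lower than intestine for 3 of 4 members, where 5.60% of all genes were called lower, ovary for 3 of 4 (background 6.16%), testis for 3 of 4 (8.11%) and carcass for 3 of 4 (4.96%). PgR057_g055 was 1 of 4 members higher in testis, where 15.8% of all genes were.

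For PgR126X_g018 the log2 difference was −3.30 for embryo against intestine, −8.53 for ovary, −8.15 for testis and −2.22 for carcass. PgR126X_g019 and PgR126X_g020 lay close to it, between −3.31 and −3.26 for embryo and between −2.27 and −2.19 for carcass. The medians over all genes reaching 1 RPKM in 1 of the tissues compared, or in both, ran the other way or were smaller, at 0.84 for embryo, 1.07 for ovary, 0.35 for testis and −0.59 for carcass. For PgR057_g055 the log2 difference from intestine was 1.87 for embryo, 1.31 for ovary, 5.03 for testis and 0.00 for carcass. The carcass call of the PgR126X genes depends on scaling: with median-of-ratios or upper-quartile scaling 0 of 4 passed.

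Embryo was also set against ovary, the tissue in which the oocytes grow. The 3 PgR126X genes were higher in embryo, where 5.35% of all genes were called higher. PgR126X_g018 had 96.4 RPKM in embryo and 1.6 in ovary, a log2 difference of 5.23, and PgR126X_g019 and PgR126X_g020 had differences of 5.45 and 5.73. PgR057_g055, at 5.2 RPKM in embryo and 3.2 in ovary, was not called (0.56). That value is for t11; it was 0.00 with the longest transcript and 0.06 with the one the authors mark as best, and of the 12 transcripts 7 were higher in embryo than in ovary and 5 were equal. The median over all genes expressed in either tissue was −0.22.

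Expressed as a share of the intestinal RPKM, the embryo value was 10.03% for PgR126X_g018 (9.81% to 10.25%), 10.26% for PgR126X_g019 (9.71% to 10.8%) and 9.95% for PgR126X_g020 (9.58% to 10.34%). For PgR057_g055 it was 743% (452% to 1297%), over an intestinal value of 0.7 RPKM. The carcass share was 21.4% for PgR126X_g018, 20.6% for PgR126X_g019 and 21.8% for PgR126X_g020. Their testis shares were 0.250%, 0.180% and 0.175%, in the same order of genes, and their ovary shares 0.166%, 0.040% and 0.032%. These shares move with the scaling of the libraries: for PgR126X_g018 the embryo share was 5.81% with median-of-ratios and 5.96% with upper-quartile scaling, the carcass share 34.1% and 28.9%, and the ovary share 0.0754% and 0.0768%.

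These shares were compared with those of other genes abundant in intestine. A group of 99 other genes, chosen with these values in view, reached 100 RPKM in intestine and had an ovarian value of at most 0.01 times the intestinal one. Their embryo share had a median of 10.34% (quartiles 9.79% and 11.6%). The embryo shares of all 3 PgR126X genes lie between those quartiles. Their carcass share had a median of 19.5% (16.04% and 22.9%), and the 3 genes again lie between the quartiles. This holds for these 99 genes, low in ovary by choice. Over all 482 other genes that reached 100 RPKM in intestine the embryo share had a median of 31.96% (quartiles 12.31% and 62.92%) and the carcass share one of 49.19% (21.85% and 77.53%), and all 3 PgR126X genes lie below the first quartile in both tissues. Sucrase-isomaltase stood at 9.997% in embryo and 14.97% in carcass. Gut esterase 1, of the same marker list, was far more even, with 331.5 RPKM in embryo, 442.2 in carcass and 419.8 in intestine. What part signal from intestinal tissue has in the embryo and carcass values was not tested.

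In testis the locus lay outside the range of those same genes. Over the 99 genes the testis share had a median of 3.70% (quartiles 2.98% and 5.08%), with a lowest value of 1.07%, for a pair of genes annotated as Fap1 adhesin (PgR066_g035, picked after its values were seen, and PgR066_g036). All 3 PgR126X genes lie below that lowest value. At the other end, the 99 genes include PgE404_g001 and PgE404_g002, annotated as major sperm protein, with testis shares of 3804% and 3441%. Without the condition on ovary, 482 other genes reached 100 RPKM in intestine. Of these, 1 had a lower testis share than PgR126X_g018 and 0 a lower one than PgR126X_g019 or PgR126X_g020. The exception, PgR061_g021, annotated as a hypothetical protein and picked after its values were seen, had 0.8 RPKM in testis and 350.8 in intestine, a share of 0.228%. Sucrase-isomaltase had a testis share of 3.47%, whereas gut esterase 1 was higher in testis than in intestine, at 667.7 and 419.8 RPKM. Genes below 100 RPKM in intestine were left out of this comparison, and some of them were also very low in testis. A lysine histidine transporter-like gene (PgB05_g115) had 0.3 RPKM in testis and 86.6 in intestine. PgR033_g082, of the doublesex and mab-3 family and picked after its values were seen, was listed at 0 in testis, with 31.0 in intestine. The 2.4 RPKM of PgR126X_g018 in testis rests on about 563 reads. Testis is labelled male, as are intestine, carcass and embryo, but the sex of those 3 somatic libraries was not tested.

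**Figure D4:**
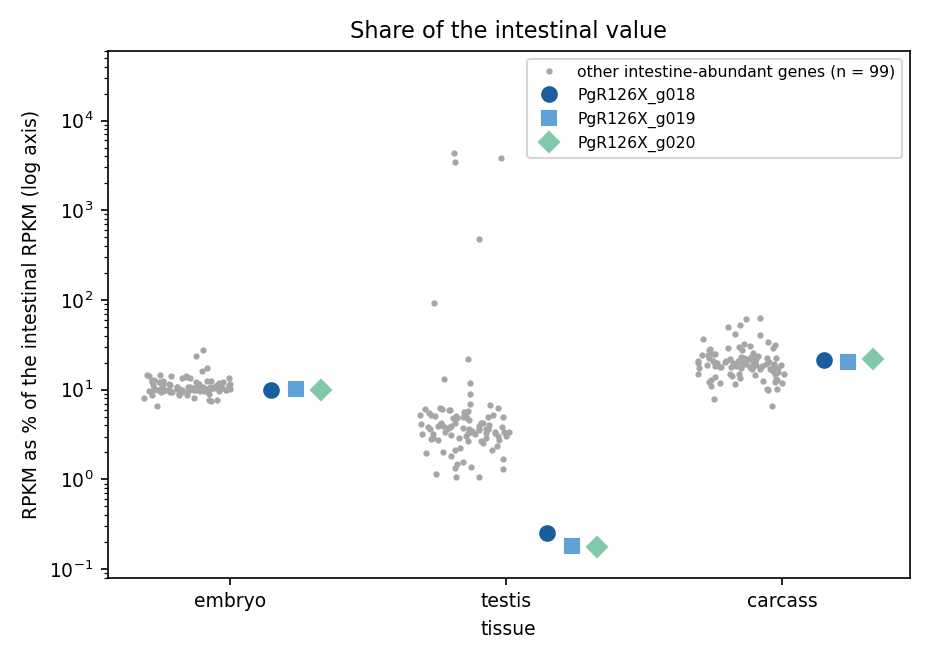
RPKM in embryo, testis and carcass as a percentage of the intestinal RPKM, on a log axis. Grey points are 99 other genes that reached 100 RPKM in intestine, with an ovarian value of at most 0.01 times that, spread sideways for legibility. They include major sperm protein genes, which lie far above the rest in testis. Coloured points are the PgR126X vitellogenin genes. These lie within the grey points in embryo (about 10%) and carcass (about 21%) and below all of them in testis (0.175% to 0.250%).

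The genes whose profiles were most like those of the vitellogenin genes were taken by the same distance, from 5563 genes with an informative annotation and at least 20 RPKM in their highest tissue. For PgR126X_g018 the 2 genes inside it came first. Next, at distances from 2.20 to 2.41, came Fap1 adhesin (PgR066_g036), a lysine histidine transporter-like gene (PgB05_g115), a fatty acid-binding protein-like gene (PgR005X_g221) and the UDP-glucuronosyltransferase ugt-47 (PgB10_g051). PgR005X_g221 had 31.9 RPKM in embryo, 1.9 in ovary, 4.0 in testis, 74.9 in carcass and 220.5 in intestine. For PgR057_g055 the 6 nearest genes lay closer, at 0.30 to 0.56, and 5 of the 6 are marked as eliminated, although PgR057_g055 itself is not. Over all genes 6.55% carry that mark. These 6 were picked for a profile highest in testis, and the share of the mark among such genes was not computed. The nearest of the 6, annotated as homeotic protein female sterile (PgE027_g005), had 3.2 RPKM in embryo, 2.3 in ovary, 48.7 in testis, 0.3 in carcass and 0.4 in intestine. The sperm gene msp-domain protein 2 (PgR152_g005), at 65.3 RPKM in testis and 1.2 in intestine, stood at a distance of 0.48.

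Neither locus shared its pattern with all of its neighbours. The genes flanking the PgR126X locus were low in intestine. Leukocyte receptor cluster member 1 (PgR126X_g017), 132 nt to its left, had 5.1 RPKM there, and Ral GTPase-activating protein subunit alpha-1 (PgR126X_g021), 1293 nt to its right, 3.7. Of the nearest 2 genes on each side, the highest intestinal value was thus 5.1 RPKM. Beside PgR057_g055, a hypothetical protein gene 4349 nt to the right on the same strand (PgR057_g056) had 34.4 RPKM in testis and 0.2 in intestine. It was also present in ovary, at 20.1 RPKM, and in embryo, at 7.3. Another, 87 nt to the left on the same strand (PgR057_g054), had 2.9 RPKM in testis and was listed at 0 in intestine. The next gene on each side was highest in ovary. Aspartyl-tRNA synthetase (PgR057_g053) had 7.6 RPKM there and 4.2 in testis, and 6-pyruvoyl tetrahydrobiopterin synthase (PgR057_g057) 12.8 and 3.0.

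Other genes of the yolk pathway were found by words in the annotation, and some hits only share a word, such as kanadaptin. Of 29 genes of yolk uptake and endocytosis, 3 were higher in ovary than in intestine, 1 was lower and 25 were neither, with a median log2 difference of 0.51 against 0.60 over all genes. For this list and those below, the median over all genes includes genes under 1 RPKM, unlike the medians given earlier. Of all 15027 genes, 3003 were higher in ovary, a larger share than the 3 of 29 in this list. The very low-density lipoprotein receptor (PgR001X_g274), of the receptor family that takes up yolk, had 42.7 RPKM in embryo, 44.2 in ovary, 39.0 in testis, 18.7 in carcass and 55.6 in intestine. Clathrin heavy chain (PgR069_g028), which coats endocytic vesicles, and dynamin (PgR002_g151), which pinches them off, had 41.9 and 57.8 RPKM in ovary, against 41.8 and 47.6 in intestine. A dynamin-1-like gene (PgR041_g027) had 80.7 in ovary and 23.4 in intestine. Low-density lipoprotein receptor-related protein 2 (PgR083X_g033), picked after its values were seen, had 40.0 RPKM in embryo, 129.4 in ovary, 0.8 in testis and 0.5 in carcass, and was listed at 0 in intestine. Its annotated transcript is only 506 nt long.

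Of 22 genes of yolk assembly and lipid loading, 3 were lower and 3 higher in ovary than in intestine, where 6.16% of all genes were lower and 3003 of 15027 higher, and 6 were lower and 2 higher in testis, where the background was 8.11% lower and 15.8% higher. The median log2 difference was 0.49 for ovary and −0.47 for testis, against 0.60 and 0.14 over all genes. Protein disulfide-isomerase A3 (PgR097_g022), a folding enzyme of the secretory pathway, had 133.1 RPKM in ovary, 62.1 in testis and 265.9 in intestine. A fatty acid-binding protein (PgR015_g036) had 3766 RPKM in embryo, 9.7 in ovary, 3.7 in testis, 856.5 in carcass and 16.5 in intestine. The large subunit of microsomal triglyceride transfer protein (PgR001X_g094), which loads lipid onto lipoproteins, and apolipophorin (PgB16_g005), a lipid carrier of the same protein superfamily as vitellogenin, were picked after their values were seen. The transfer protein had 8.5 RPKM in embryo, 3.1 in testis, 13.9 in carcass and 72.3 in intestine, and was listed at 0 in ovary. Apolipophorin had 13.6 RPKM in embryo, 1.5 in ovary, 8.4 in testis, 20.1 in carcass and 105.3 in intestine. Their testis shares of the intestinal value, 4.29% and 7.98%, were above those of the PgR126X genes.

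Among 10 genes related to regulators of vitellogenin in C. elegans, 5 were lower and 2 higher in testis than in intestine (background 8.11% and 15.8%), with a median log2 difference of −2.65 against 0.14 over all genes. Forkhead box protein O (PgR056X_g049), the insulin-responsive factor that lowers vitellogenin expression in C. elegans, had 5.3 RPKM in testis and 98.5 in intestine. The homeobox genes unc-62 (PgR096_g023), an activator of vitellogenin genes in C. elegans, and homothorax (PgR032X_g076) had 0.3 and 0.8 RPKM in testis, against 14.2 and 36.3 in intestine. They did not follow the PgR126X locus in every tissue. In embryo, ovary and carcass unc-62 had 45.8, 28.2 and 7.4 RPKM, and homothorax 9.8, 29.7 and 7.7. In C. elegans males, mab-3 represses vitellogenin. A gene of the doublesex and mab-3 family annotated as dmd-6 (PgR055_g007) had 7.8 RPKM in embryo, 6.5 in ovary, 3.8 in testis, 28.9 in carcass and 58.6 in intestine. A gene annotated as the gut transcription factor elt-2 (PgR060_g014), picked after its values were seen, had 8.5 RPKM in embryo, 0.7 in ovary, 1.3 in testis, 9.5 in carcass and 60.7 in intestine.

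Of 59 genes of yolk breakdown, found mainly as cathepsins and phospholipases, 10 were higher and 2 lower in embryo than in ovary (background 5.35% and 4.45%), and 12 were lower and 10 higher in embryo than in intestine (5.60% and 16.2%). The median log2 difference was 0.12 for embryo against ovary and 0.32 for embryo against intestine, where all genes had −0.04 and 0.49. Cathepsin D (PgR074X_g003), an aspartic protease of lysosomes, had 96.9 RPKM in embryo, 2.5 in ovary, 29.6 in testis, 248.2 in carcass and 799.7 in intestine. A cathepsin B-like proteinase (PgB04_g152) was listed at 0 in ovary, with 30.7 RPKM in embryo and 327.4 in intestine. Cathepsin L (PgR023_g006), at 42.9 RPKM in embryo, 36.7 in ovary and 91.9 in intestine, was more even.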

How the data were processed

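The authors' deposited table holds, for every transcript and tissue, 1 RPKM value rounded to 1 decimal; no header names the unit, which follows from the steps of the low values. The submitters' processing notes list TopHat2 and Cufflinks without versions or roles. Total RNA was depleted of rRNA before library preparation, per the labels' protocols. Not given in the sources used here are genome build, strandedness and the counting of multiply mapped reads. No columns of other samples were found (0).

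Depth was taken as the number of reads at which low values, within their rounding of 0.05 RPKM, were whole reads. This held for 91.6% to 100.0% of the values used, against 47.9% to 55.8% by chance. The search was tested on data simulated as RPKM, so that test does not bear on the unit. Reads behind a value follow from RPKM, length and depth. A gene was represented by its transcript with the highest mean. Differences were taken on log2(RPKM + 1). Members and gene lists were chosen with earlier results of these data known; named genes come from all members, the 4 highest of each list, the 6 most alike genes and 2 neighbours per side, and others are said to be picked after their values were seen. Sequences were not used here. Python 3.11.15, numpy 2.4.6, pandas 2.3.3 and scipy 1.17.1 were used. The submitters' 2 mixed libraries entered only as marks.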

Additional observations from a re-analysis of the deposited data

How the results depend on the processing

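The calls of the PgR126X genes against embryo, ovary and testis, and between embryo and ovary, stayed at 3 of 4 members under pseudocounts of 0.1 and 5, other minima and thresholds, 4 other scalings, summed, longest or authors' best-marked transcripts (the last chosen after seeing the data). The call of carcass against intestine fell to 0 members with an 8-fold threshold, with median-of-ratios scaling and with upper-quartile scaling. Without the inner genes each of the 5 counts was 1 of 2, by construction. The embryo share of the intestinal value of PgR126X_g018 was 10.03% as deposited, 5.81% with median-of-ratios scaling, 5.96% with upper-quartile scaling, 9.36% with each tissue's 20 highest genes removed and 6.765% as TPM; a scaling factor applies alike to all genes of a library, so it does not move this share relative to other genes. Over the 5 comparisons these scalings shifted the median of all genes by −0.93 to 0.52, −0.91 to 0.32, −0.50 to 0.49 and −0.45 to −0.13, in the same order. Other minima and thresholds change only a call, and the PgR126X genes have 1 transcript each; of the 135 gene-level log2 differences that an alternative could change, 58 moved by no more than counting error, 77 by more, and 0 called ones changed sign. No paired analysis was possible because each tissue has 1 library, which also means that no library could be left out. Differences among values of 0.2 RPKM or less are limited by rounding and depth.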

Other observations

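The transcript that the authors mark as best expressed for PgR057_g055 is t10, with 1.5 RPKM in embryo, 1.4 in ovary, 35 in testis, 0.5 in carcass and 0.3 in intestine, and not t11, which has 54.4 RPKM in testis. The mark and the highest mean differ in 4484 of the 7964 genes with more than 1 transcript, so the mark follows some other rule than the mean over these 5 tissues.

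Both genes that follow were picked after their values were seen. A second gene annotated as elt-2 (PgB01_g002) had 18.5 RPKM in embryo and 0.2 in intestine, opposite in direction to PgR060_g014 and to the PgR126X vitellogenin genes. Among the factors of the doublesex and mab-3 family, PgR033_g082 had 1.1 RPKM in embryo, 2.0 in carcass and 31.0 in intestine and was listed at 0 in ovary and testis.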
